A study of Homo sapiens with 18 samples.

Results

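The genes described here are the 37 human genes on the array whose symbol is UBE followed by a digit, out of 18334 genes measured. They were taken from the array's probe annotation by symbol alone, and no measured value decided which symbols were taken. Earlier results of these data were known when the family was chosen. Of the 37 genes, 26 are UBE2 genes, 6 are UBE3 or UBE4 genes (UBE3A, UBE3B, UBE3C, UBE3D, UBE4A and UBE4B), and 5 are pseudogenes in RefSeq (UBE2DNL, UBE2MP1, UBE2NL, UBE2Q2P1 and UBE2Q2P13). They were read by 68 array features: 16 genes had 1 feature and 21 had several, up to 4. A further feature that names UBE2V1 together with 2 neighbouring entries was left out, since it cannot be given to 1 gene.

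Ubiquitin is a small protein that cells attach to other proteins, most often to mark them for the proteasome. An E1 enzyme activates it, an E2 conjugating enzyme carries it on an active-site cysteine, and an E3 ligase brings the loaded E2 to the substrate. An E4 enzyme extends chains that are already there. The UBE2 symbols mostly name E2 enzymes, each of which serves a different set of ligases, while UBE3 and UBE4 symbols name ligases and chain-extending factors that were given the same root. In blood cells the system removes cell-cycle regulators, misfolded proteins and, during red cell formation, much of the cell's former content. It also builds the ubiquitin chains on which TNF receptor signalling depends.

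The cells were K562, an established line of chronic myelogenous leukaemia with erythroid features. On each 2-colour array RNA of cells in 1 state was hybridised against RNA of cells in another, and 3 comparisons were made: cells given TNFalpha against untreated cells, cells given heteronemin against untreated cells, and cells given both agents (cotreated) against cells given TNFalpha. Heteronemin, a sesterterpenoid from marine sponges, was added at 6 µM at 0 h, with DMSO in its place for cells without it, and TNFalpha, an inflammatory cytokine, at 10 ng/mL at 2 h, with water in its place. All cells were harvested at 6 h, so that TNFalpha had acted for 4 h. Each comparison had 3 biological replicates and each replicate 2 arrays with the dyes exchanged. Values are log2 ratios of treated over control RNA, averaged over a gene's features and over the dye-exchanged pair, so that 0 means no difference and n = 3 per comparison. A gene was called at an adjusted p under 0.05 (limma fitted over all genes, Benjamini-Hochberg, two-sided).

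The ratios hold no absolute level, so the order of the genes by abundance and the presence of K562 marker transcripts could not be read. The measured erythroid markers, 8 of 10 listed, had median log2 ratios of 0.02 (TNFalpha against untreated), 0.02 (heteronemin against untreated) and 0.07 (cotreated against TNFalpha). The 3 of 4 lymphoid markers had medians of −0.06, 0.13 and 0.12 in the same order, and the 4 monocyte and granulocyte markers 0.00, −0.05 and 0.04. Replicate 1 of both heteronemin comparisons spread more than the others: the SD over all genes was 0.329, 0.195 and 0.163 in replicates 1 to 3 of heteronemin against untreated, and 0.384, 0.215 and 0.172 in those of cotreated against TNFalpha. Values of the called members are therefore given by replicate, and member calls that changed without replicate 1 are named. Several genes of the other lists are given as mean ± SD only. For calls in those lists no result without a replicate is given.

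The sign of some members turned with the dye that carried the treated RNA, so that their averages hide opposite readings. UBE2A, UBE2L6, UBE2MP1 and UBE3D had opposite signs on the 2 dye-exchanged arrays of every replicate of both heteronemin comparisons (4 of 37, 10.8%, against 3.22% of all genes). The first 3 were lower with treated RNA in Cy5 and higher with it in Cy3, and UBE3D the other way round. The signs matched in all 6 of these replicates for 9 members (24.3%, against 10.3% of all genes), among them UBE2H, UBE2B, UBE2G2 and UBE2N. The part of the dye in the other values was not tested.

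The upstream sequences of UBE2G2 and UBE3A are printed because both genes were called as lower with heteronemin. They are the 250 bases before each gene's start, from RefSeq on GRCh38.p14, written 5′ to 3′ on the gene's own strand. Capitals mark the searched motifs on either strand: in UBE2G2 (chr21:44801821-44802070, minus strand) the ETS core CCGGAAG, and in UBE3A (chr15:25439057-25439306, minus strand) the GC box GGGCGG or its complement and the CCAAT box.
UBE2G2: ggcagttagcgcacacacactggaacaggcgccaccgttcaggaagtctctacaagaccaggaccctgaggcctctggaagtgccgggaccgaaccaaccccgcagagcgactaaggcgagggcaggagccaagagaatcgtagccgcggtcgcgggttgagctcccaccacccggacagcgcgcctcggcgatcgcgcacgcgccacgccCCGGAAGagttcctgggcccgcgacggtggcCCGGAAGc
UBE3A: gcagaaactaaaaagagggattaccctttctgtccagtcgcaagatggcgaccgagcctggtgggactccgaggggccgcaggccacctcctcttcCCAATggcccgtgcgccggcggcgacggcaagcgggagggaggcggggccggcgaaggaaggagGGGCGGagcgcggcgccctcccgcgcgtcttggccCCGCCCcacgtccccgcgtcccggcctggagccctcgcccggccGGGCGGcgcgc

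The UBE2G2 window held 2 ETS cores, and no GC box. The UBE3A window held 3 GC boxes and 1 CCAAT box and no ETS core. A promoter entry was matched for 28 of the 37 genes. The GC box GGGCGG was in 22 of these 28 windows (78.6%), against 42.2% of all 27305 promoters, and the ETS core CCGGAAG in 6 (21.4%), against 8.79%. The CCAAT box was in 8 (28.6%), against 33.1%. Among elements of stress responses, the antioxidant response element TGACNNNGC was in 4 windows (14.3%), against 11.1% of all promoters. The C/EBP-ATF element TGATGNAA, the AP-1 site TGANTCA and the heat shock core GAANNTTC were in 0 of the 28, against 3.19%, 6.59% and 5.84% of all promoters, and the E-box CACGTG was in 1 (3.57%), against 6.48%. Each motif was searched on both strands, and a match is a description of the letters only.

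Few of the 37 genes changed, and those that passed the test are named here. Under heteronemin alone UBE2H rose, with a fold of 1.53, while UBE2G2 and UBE3A fell, to 0.846 and 0.837 of the untreated level. In cotreated cells UBE2H rose (fold of 1.43) and UBE2G2 fell (to 0.839 of the level with TNFalpha alone). No member was called under TNFalpha alone. Members called were thus 3 of 37 (8.11%) for heteronemin against untreated, where 4.87% of all genes were called, 2 of 37 (5.41%) for cotreated against TNFalpha, where 6.55% of all genes were called, and 0 of 37 for TNFalpha against untreated, where 0.0% were called. By direction, 1 member was higher and 2 lower under heteronemin, where 2.29% and 2.58% of all genes were, and 1 higher and 1 lower in cotreated cells, where 3.39% and 3.15% were. At an unadjusted p under 0.05 stood 12 members under heteronemin (32.4%, against 18.2% of all genes), 11 in cotreated cells (29.7%, against 21.2%) and 0 under TNFalpha (against 1.72%). The counts of called members were near the share of all genes. With the replicate number as a block, 4 members were called for heteronemin (UBE2H, UBE2B, UBE2G2 and UBE2N) and 6 in cotreated cells (the same 4, UBE2NL and UBE2Q1), and UBE3A was not (limma, adjusted p = 0.0653). Of all genes, 507 were then higher and 595 lower under heteronemin, and 740 and 753 in cotreated cells. The block takes the deviations that same-numbered replicates share as fixed, so its test of a mean against 0 leaves that spread out. Without replicate 1 in every comparison, 9 members were called under heteronemin (UBE2H, UBE2B, UBE2G2, UBE2N, UBE2O, UBE2Q1, UBE2S, UBE3A and UBE3C) and 5 in cotreated cells (UBE2H, UBE2G2, UBE2N, UBE2D4 and UBE2S), and without replicate 2 or replicate 3 in every comparison 0 were called in either. Of all genes, 1314 were higher and 1226 lower under heteronemin without replicate 1, and 1898 and 1499 in cotreated cells. Without replicate 2, 2 were higher and 0 lower in each. Without replicate 3, 13 and 7 were under heteronemin, and 6 and 2 in cotreated cells. Few genes of any kind were thus called without replicate 2 or replicate 3.

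**Figure D1:**
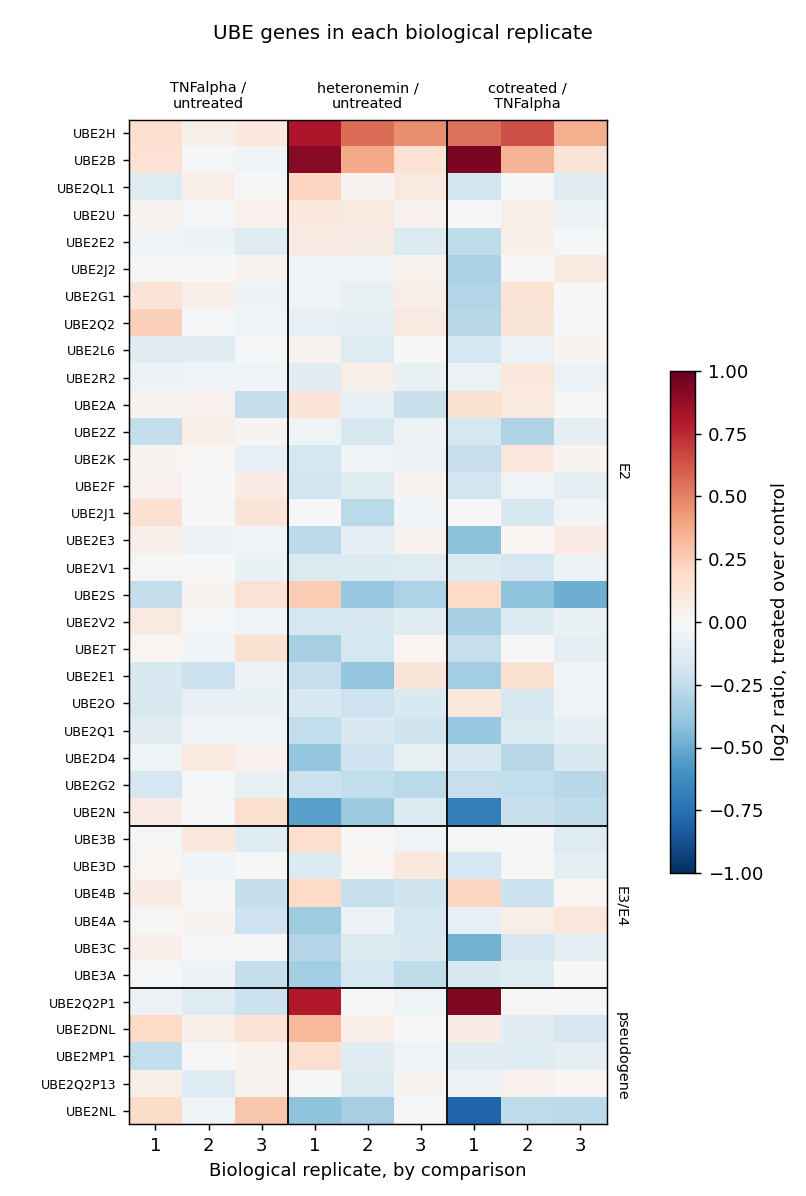
Log2 ratio of treated over control RNA for each of the 37 UBE genes (down the page, by class and, within a class, by mean under heteronemin) in the 3 biological replicates of each comparison (across). Red is higher and blue lower in treated cells, with the colour scale from −1 to 1. UBE2H and UBE2B are red in all 6 heteronemin and cotreated columns, UBE2Q2P1 only in replicate 1, and most other E2 genes are pale blue there.

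UBE2H is an E2 that works with the CTLH ligase complex and accumulates in maturing red cell precursors. Its log2 ratio was 0.81, 0.56 and 0.46 in replicates 1 to 3 of heteronemin against untreated (mean 0.61 ± 0.18, SD, n = 3; limma, adjusted p = 0.00403). In cotreated against TNFalpha-treated cells it was 0.55, 0.64 and 0.36 (0.52 ± 0.15; adjusted p = 0.00581). All 12 arrays of both comparisons, and both features of the gene, were above 0, and every replicate was above the range of the TNFalpha comparison, 0.05 to 0.17. Under TNFalpha it averaged 0.11 ± 0.06 and did not pass (unadjusted p = 0.181). The alternative settings, here and below, are not independent, since some left a gene's ratio as it was and changed only the estimated spread. Of 25 alternative settings UBE2H was called in 21 for heteronemin and 20 in cotreated cells. It was lost when replicate 2 or replicate 3 was left out of every comparison (adjusted p = 0.189 and 0.0836 for heteronemin, 0.234 and 0.0828 in cotreated cells) and, in cotreated cells, without replicate 2 of that comparison alone (0.052). UBE2H was also lost in both when each comparison was fitted alone, and with a trended, robust prior.

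UBE2B is the human RAD6B, which ubiquitinates histone H2B and the sliding clamp at stalled replication forks. It had the second-highest mean among the members but did not pass: its log2 ratio was 0.91, 0.38 and 0.15 under heteronemin (0.48 ± 0.39; adjusted p = 0.159) and 0.94, 0.34 and 0.13 in cotreated cells (0.47 ± 0.42; adjusted p = 0.140; limma). All 12 arrays were above 0, and the value in replicate 1 was the highest in both comparisons. Its 3 features also differed, from 0.37 to 1.48 in replicate 1 of heteronemin and from 0.28 to 1.68 in replicate 1 of the cotreated comparison. With the replicate block it was called in both (adjusted p = 0.0277 and 0.0231), and without replicate 1 in every comparison its mean under heteronemin was 0.26 (adjusted p = 0.0438). Its close relative UBE2A, RAD6A, was at 0.13, −0.08 and −0.22 under heteronemin and at 0.16, 0.09 and 0.00 in cotreated cells, so the replicates lay on both sides of 0 in the comparison with untreated cells. These are averages of opposite readings: with treated RNA in Cy5 the 3 arrays averaged −0.35 under heteronemin and −0.18 in cotreated cells, and with it in Cy3 0.24 and 0.35. Its 2 features also read 0.66 and −0.39 in replicate 1 of heteronemin, so no direction can be given for UBE2A.

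**Figure D2:**
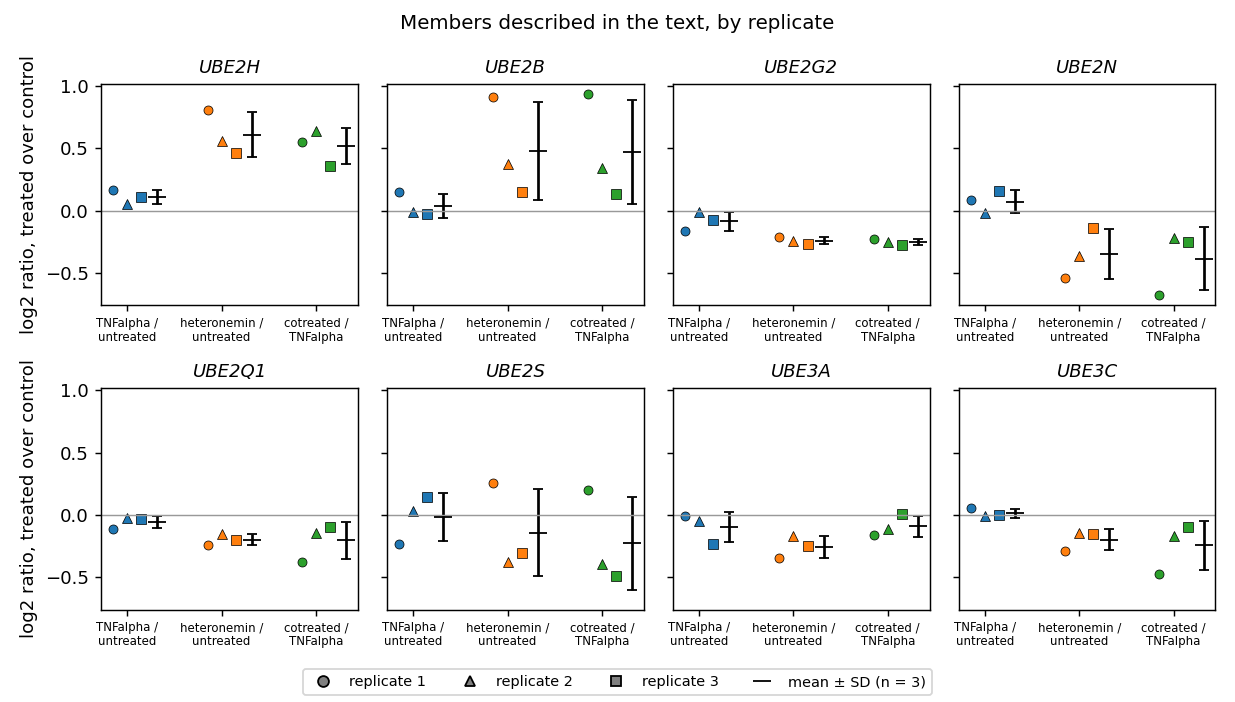
Log2 ratio of treated over control RNA for 8 UBE genes, 1 panel each, in the 3 comparisons. Symbols are the biological replicates and the bar is their mean ± SD (n = 3). UBE2H lies above 0.3 in all 6 heteronemin and cotreated replicates, UBE2G2 between −0.28 and −0.21, and UBE2S has replicate 1 above 0 and replicates 2 and 3 below it.

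UBE2G2 is the E2 of endoplasmic-reticulum-associated degradation, in which misfolded secretory proteins are drawn out of the endoplasmic reticulum and sent to the proteasome. Its log2 ratio was −0.21, −0.25 and −0.27 under heteronemin (−0.24 ± 0.03; adjusted p = 0.0153) and −0.23, −0.25 and −0.28 in cotreated cells (−0.25 ± 0.02; adjusted p = 0.0105; limma). All 12 arrays were below 0, from −0.42 to −0.01 under heteronemin and from −0.39 to −0.10 in cotreated cells. In TNFalpha-treated cells it was at −0.16, −0.01 and −0.08, which did not pass (unadjusted p = 0.0755). The closeness of the replicates comes from averaging 2 features that differed: in replicate 1 they read −0.43 and 0.00 under heteronemin and −0.52 and 0.06 in cotreated cells. Fitted per feature over all 31332 features, neither passed under heteronemin (adjusted p = 0.0607 and 0.244) and 1 of the 2 did in cotreated cells (0.0164 and 0.494). Over 25 alternatives the gene was called in 16 for heteronemin and 18 in cotreated cells. Leaving out replicate 1, 2 or 3 of the heteronemin comparison ended its call there (adjusted p = 0.0537, 0.102 and 0.0797), and leaving out replicate 2 or 3 of the cotreated comparison ended it in cotreated cells (0.0705 and 0.0593).

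The other E2 enzymes of the endoplasmic reticulum did not pass. UBE2J1 and UBE2J2, which sit in its membrane, averaged −0.10 and −0.01 under heteronemin and −0.06 and −0.07 in cotreated cells, and UBE2G1, a relative of UBE2G2, −0.02 and −0.05. All 4 had means below 0 in both comparisons, and UBE2G2 was the single one of them below 0 in all 6 replicates. UBE2J2 turned with the dye in every replicate of heteronemin, so no direction can be given for it there. It averaged 0.03 with treated RNA in Cy5 and −0.06 with it in Cy3. Among ligases and ligase cofactors of this pathway, 9 of 10 listed were measured. RNF103 was called, at 0.47, 0.25 and 0.22 under heteronemin (0.31 ± 0.14; adjusted p = 0.0250) and 0.48, 0.48 and 0.40 in cotreated cells (0.45 ± 0.04; adjusted p = 0.00478; limma). The other 8 did not pass, and the list's median was −0.04 under heteronemin and −0.03 in cotreated cells, against 0.01 over all genes in both. One of these 8, HERPUD1, a stress-induced scaffold that is no ligase itself and is named after its values were seen, was at 0.22, 2.32 and 1.84 under heteronemin and 0.14, 2.23 and 1.80 in cotreated cells, so that replicate 1 stood apart (limma, adjusted p = 0.105 and 0.1).

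UBE2N forms, with its inactive partners UBE2V1 or UBE2V2, the chains that recruit kinases in NF-kB signalling and DNA repair. It had the lowest mean of the E2 enzymes in both heteronemin comparisons without passing the test. Its log2 ratio was −0.54, −0.37 and −0.14 under heteronemin (−0.35 ± 0.20; adjusted p = 0.0937) and −0.68, −0.22 and −0.26 in cotreated cells (−0.39 ± 0.26; adjusted p = 0.0569; limma), with replicate 1 the lowest in each. With the replicate block it was called in both (adjusted p = 0.0465 and 0.0283). It was called as well when replicate 1 was left out of every comparison (means −0.25 and −0.24; adjusted p = 0.0418 and 0.0420). The 3 features of UBE2N differed in replicate 3 of heteronemin, at −0.46, 0.03 and 0.02, so the value there came from 1 feature. Fitted per feature, that feature passed in both comparisons (limma, adjusted p = 0.0359 and 0.0276), and the others in neither. UBE2NL, a retrocopy of UBE2N that RefSeq lists as a pseudogene, was at −0.40, −0.33 and −0.02 under heteronemin and −0.80, −0.26 and −0.26 in cotreated cells (adjusted p = 0.310 and 0.0638). Because it is near-identical to UBE2N, its feature may have bound UBE2N transcripts, and its value is uncertain.

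The partners lay below 0 in all 6 replicates as well, by less. UBE2V1 was at −0.14, −0.14 and −0.13 under heteronemin (adjusted p = 0.104) and averaged −0.12 ± 0.06 in cotreated cells (0.123). UBE2V2 averaged −0.15 ± 0.03 (0.182) and −0.18 ± 0.13 (0.0956; limma). Under TNFalpha alone the 3 genes averaged 0.07, −0.02 and 0.01 for UBE2N, UBE2V1 and UBE2V2, and none passed. Of the 14 measured genes of ubiquitin signalling at the TNF receptor, of 16 listed, none was called in any comparison, and their medians were 0.02 under TNFalpha, 0.12 under heteronemin and 0.08 in cotreated cells. TNFAIP3, the ubiquitin-editing enzyme A20 and a textbook TNFalpha target, was at 1.04, 1.49 and 1.03 under TNFalpha (1.19 ± 0.26; limma, adjusted p = 0.190), above every UBE gene in that comparison.

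The remaining E2 enzymes for ubiquitin were not called. Fitted per feature, 1 of the 2 features of UBE2Q1 passed under heteronemin and in cotreated cells (adjusted p = 0.0146 and 0.0249). Of the 2 features of UBE2O, 1 passed under heteronemin (limma, adjusted p = 0.0216). UBE2Q1 was at −0.24, −0.15 and −0.20 under heteronemin (adjusted p = 0.0945) and −0.38, −0.15 and −0.10 in cotreated cells (0.0706). UBE2D4, of the broad-range UBE2D group, was at −0.38, −0.21 and −0.07 (0.0907) and −0.15, −0.28 and −0.15 (0.109; limma). UBE2O, a large enzyme with E2 and E3 activity that clears ribosomal proteins from maturing red cells, was at −0.15, −0.21 and −0.15 under heteronemin (0.121), but its cotreated replicates lay on both sides of 0, at 0.11, −0.16 and −0.04. UBE2Z, which takes ubiquitin from the E1 enzyme UBA6, was below 0 in all 6 replicates, with means of −0.08 under heteronemin and −0.19 in cotreated cells (0.564 and 0.143). Its 3 features differed in sign in replicates 1 and 3 of both comparisons. Under heteronemin they read 0.08, 0.23 and −0.42 in replicate 1 and 0.16, −0.26 and −0.04 in replicate 3. UBE2E1, UBE2E2, UBE2E3, UBE2K, UBE2Q2, UBE2R2 and UBE2U had replicates on both sides of 0 in 1 or both comparisons. Of these, UBE2U under heteronemin and UBE2E2 in cotreated cells had opposite signs on the 2 dye-exchanged arrays of every replicate. UBE2QL1 was above 0 in each replicate under heteronemin, at 0.22, 0.03 and 0.09, and below it in cotreated cells, at −0.18, −0.01 and −0.10, without passing in either. The E2 enzymes for ubiquitin-like proteins, UBE2F (NEDD8) and UBE2L6 (ISG15), averaged −0.10 and −0.03 under heteronemin and −0.11 and −0.07 in cotreated cells. UBE2L6 turned with the dye: it averaged −0.22 under heteronemin and −0.36 in cotreated cells with treated RNA in Cy5, where it was called in cotreated cells (limma, adjusted p = 0.0220), and 0.15 and 0.23 with it in Cy3.

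UBE2S, which builds chains for the anaphase-promoting complex (APC/C), the ligase that drives exit from mitosis, is described after its values were seen, because its replicates split. It was at 0.26, −0.38 and −0.31 under heteronemin and at 0.20, −0.40 and −0.49 in cotreated cells (adjusted p = 0.677 and 0.442; limma). Its 3 features had the same sign in every replicate of both comparisons. Without replicate 1 in every comparison, the means were −0.34 and −0.44 (adjusted p = 0.00416 and 0.00118). UBE2T, the E2 of the Fanconi anaemia pathway of DNA crosslink repair, averaged −0.16 ± 0.18 under heteronemin and −0.11 ± 0.12 in cotreated cells and was not called.

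**Figure D3:**
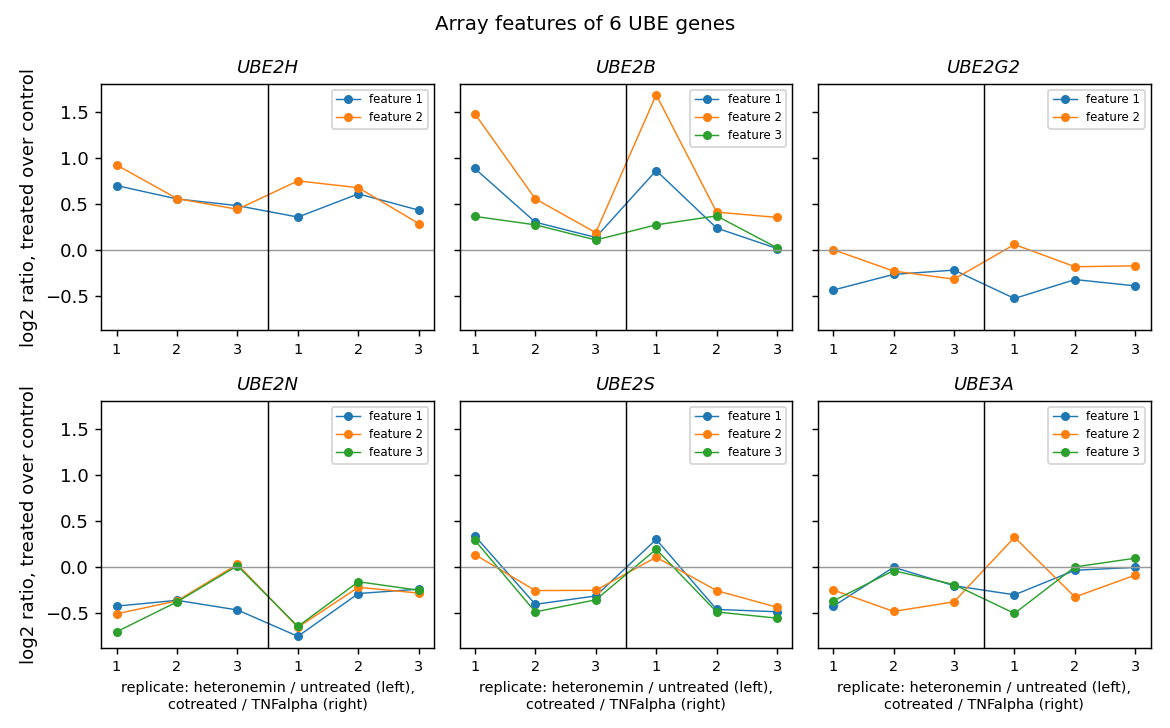
Log2 ratio of treated over control RNA of each array feature of 6 UBE genes in replicates 1 to 3 of heteronemin against untreated (left of the line) and cotreated against TNFalpha (right of it). Each line is 1 feature. The features of UBE2H and UBE2S run together, those of UBE2B spread in replicate 1, and those of UBE2G2 and UBE3A differ in sign in replicate 1 of cotreated cells.

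The APC/C list, of which all 17 genes were measured, had 3 called genes, all lower, in each heteronemin comparison. CDC26, a small stabilising subunit, was at −0.71, −0.72 and −0.61 under heteronemin (adjusted p = 0.00234) and −0.43, −0.79 and −0.54 in cotreated cells (0.00320). FBXO5, an inhibitor of the complex and not a subunit, was at −0.30, −0.42 and −0.37 (0.00701) and −0.28, −0.29 and −0.32 (0.0134; limma). ANAPC13, another small subunit, averaged −0.48 ± 0.17 (0.0145) and −0.46 ± 0.20 (0.0142). The other 14 did not pass, and the list's medians, −0.02 under heteronemin and −0.05 in cotreated cells, lay near those of all genes.

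The 6 UBE3 and UBE4 genes had a median log2 ratio of −0.14 under heteronemin and −0.07 in cotreated cells, against −0.09 and −0.08 for the 26 UBE2 genes, and the ranges of both classes overlapped. UBE3A, the ligase whose loss in neurons causes Angelman syndrome, was the called member of the class. It was at −0.35, −0.17 and −0.25 under heteronemin (−0.26 ± 0.09; adjusted p = 0.0426), with all 6 arrays below 0. In cotreated cells it was at −0.16, −0.12 and 0.00 (−0.09 ± 0.08; adjusted p = 0.421; limma), and under TNFalpha at −0.01, −0.05 and −0.24. The difference between its heteronemin effects with and without TNFalpha was 0.17 ± 0.10 (limma, unadjusted p = 0.0762), so a difference was not shown. The SD is of differences within a replicate number, while the p-value is from a fit that does not pair the replicates. For this difference UBE3A was called in 0 of 24 alternatives, among them a fit of differences within a replicate number. Under heteronemin it was called in 9 of 25 alternatives. Leaving out replicate 1, 2 or 3 of the heteronemin comparison gave adjusted p-values of 0.204, 0.115 and 0.139, and taking the median of its 3 features gave 0.155. Fitted per feature, none of the 3 passed under heteronemin (limma, adjusted p = 0.288, 0.0967 and 0.474). In replicate 2 of heteronemin these features read −0.0002, −0.48 and −0.04.

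UBE3C, a HECT ligase that extends chains on the proteasome, was below 0 in all 6 replicates, at −0.29, −0.15 and −0.15 under heteronemin (adjusted p = 0.168) and −0.47, −0.17 and −0.10 in cotreated cells (0.0758; limma). UBE4A, a U-box chain-extending factor, was at −0.35, −0.06 and −0.18 under heteronemin and −0.08, 0.06 and 0.11 in cotreated cells. Its relative UBE4B was at 0.20, −0.23 and −0.20 and at 0.21, −0.21 and 0.02, with replicate 1 above 0 in both. UBE3B and UBE3D, the other members, stayed between −0.17 and 0.17 in all 6 replicates. For UBE3D these average opposite readings, 0.14 under heteronemin and 0.07 in cotreated cells with treated RNA in Cy5, against −0.15 and −0.24 with it in Cy3. UBE4A did so in cotreated cells, at 0.23 with treated RNA in Cy5 and −0.17 with it in Cy3. Among 22 measured HECT ligases without a UBE symbol, HECTD3 was lower under heteronemin (−0.23 ± 0.04; adjusted p = 0.0254) and HERC1 higher in cotreated cells (0.35 ± 0.19; limma, adjusted p = 0.0473). The medians of that list were −0.02 under heteronemin and 0.01 in cotreated cells.

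Of the 37 members, 28 had a mean below 0 under heteronemin (75.7%) and 30 in cotreated cells (81.1%), against 46.7% and 47.1% of all genes. The median over members was −0.08 under heteronemin, with replicate medians of −0.08, −0.12 and −0.03, and −0.08 in cotreated cells, with replicate medians of −0.17, −0.02 and −0.05. The median over all genes was 0.01 in both. The shifts were small, as they were over all genes. A mean within 0.2 of 0 was found for 29 members under heteronemin and 28 in cotreated cells. Of all genes, 82.9% and 80.4% had such a mean. All 3 replicates were below 0 for 13 members under heteronemin (35.1%), against 19.2% of all genes, and for 15 in cotreated cells (40.5%), against 19.6%. They were above 0 for 5 members under heteronemin and 4 in cotreated cells, against 20.6% and 18.7% of all genes.

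Both heteronemin comparisons gave similar values for the members. They share no RNA on an array, but same-numbered replicates deviated together, so they are not independent. Over the 37 members the correlation of the means was 0.864, and over all 18334 genes 0.839. The sign was the same for 29 members (78.4%, against 72.9% of all genes), 25 below and 4 above 0. All 6 replicates were below 0 for 9 members (24.3%, against 10.7% of all genes): UBE2D4, UBE2G2, UBE2N, UBE2NL, UBE2Q1, UBE2V1, UBE2V2, UBE2Z and UBE3C. They were above 0 for UBE2B and UBE2H (5.41%, against 9.43%). These are signs of averages over features, and for some members, UBE2Z among them, the features differed in sign within a replicate.

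**Figure D4:**
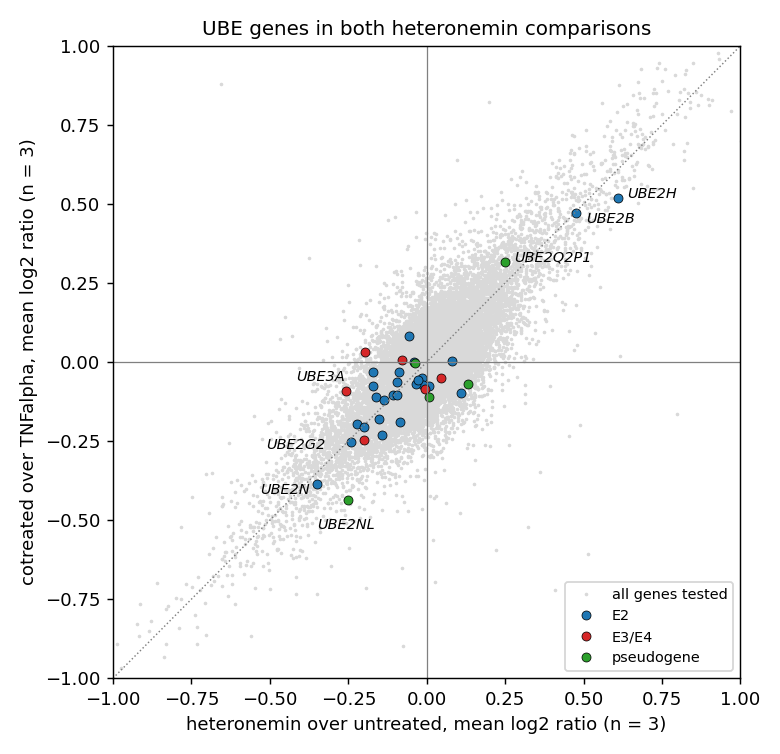
Mean log2 ratio (n = 3) under heteronemin over untreated (x axis) and in cotreated over TNFalpha-treated cells (y axis) for all genes (grey) and the 37 UBE genes, coloured by class. The dotted line marks equal values, and 56 of the grey points lie outside the axes. UBE2H and UBE2B lie at the upper right, and UBE2N and UBE2NL at the lower left of the members.

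Under TNFalpha alone the members stayed within 0.2 of 0, as did 98.6% of all genes. They ranged from −0.14 for UBE2E1 to 0.14 for UBE2NL, with a median of −0.01 against 0.00 over all genes. The 4 with the smallest p, none of which passed, were UBE2G2 (given above), UBE2O at −0.16, −0.08 and −0.07 (unadjusted p = 0.0824), UBE2DNL at 0.20, 0.05 and 0.14 (0.102) and UBE3A (0.122; limma). The 2 arrays of a dye-exchanged pair hardly agreed over the members in this comparison, with correlations of 0.01, −0.42 and −0.04 in replicates 1 to 3, against 0.39, 0.48 and 0.07 for heteronemin and 0.60, 0.32 and 0.12 for cotreated cells. No member's heteronemin effect was called as different with and without TNFalpha, where 0.0% of all genes were called. At an unadjusted p under 0.05 stood 2 members (5.41%) for this difference, against 2.59% of all genes. That fit did not pair the replicates. In a fit of differences within a replicate number, 1022 of all genes had an unadjusted p under 0.05, and no gene was called.

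The enzymes on either side of the E2 step were taken from lists of their families. Of 8 measured E1 and activating enzymes, of 10 listed, NAE1, a subunit of the NEDD8 E1, fell under heteronemin (−0.42 ± 0.17; adjusted p = 0.0440) and none was called in cotreated cells. Of the 16 cullin-RING genes, RBX1, the RING subunit that docks the E2, fell in both comparisons, with log2 ratios of −0.41, −0.53 and −0.32 under heteronemin (adjusted p = 0.00578) and −0.30, −0.40 and −0.42 in cotreated cells (0.00750; limma). In cotreated cells the scaffold CUL3 also fell (−0.36 ± 0.17; 0.0253) and CUL4B rose (0.30 ± 0.10; 0.0167). Of 13 measured RBR ligases, of 14 listed, none was called under heteronemin, and RNF19A (0.27 ± 0.10; 0.0240) and RNF19B (0.25 ± 0.13; 0.0294) rose in cotreated cells. Of 10 measured genes for ubiquitin and its relatives, of 17 listed, ISG15, the interferon-induced modifier that UBE2L6 carries, fell under heteronemin (−0.29 ± 0.18; 0.0426) and in cotreated cells (−0.26 ± 0.06; 0.0499; limma). None of the 8 other proteins with an E2 fold passed in any comparison, and TNFalpha alone gave no call in any of these lists. The list medians under heteronemin and in cotreated cells were 0.02 and −0.01 for the E1 enzymes, −0.07 and −0.02 for the cullin-RING genes, 0.08 and 0.06 for the RBR ligases, −0.04 and −0.07 for ubiquitin and its relatives, and −0.05 and −0.12 for the other E2 folds, against 0.01 and 0.01 over all genes.

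The pseudogenes were taken separately, since a feature for one may read its parent gene. UBE2Q2P1 was at 0.80, −0.01 and −0.05 under heteronemin and at 0.94, 0.01 and 0.00 in cotreated cells, so its mean of 0.25 under heteronemin came from replicate 1. Its parent, UBE2Q2, was at −0.08 and −0.28 in that replicate of the heteronemin and the cotreated comparison. UBE2DNL, UBE2MP1 and UBE2Q2P13 averaged 0.13, 0.01 and −0.04 under heteronemin and −0.07, −0.11 and 0.00 in cotreated cells, and none was called. The direction of UBE2MP1 turned with the dye. With treated RNA in Cy5 it averaged −0.44 under heteronemin and −0.50 in cotreated cells, and was called in both (limma, adjusted p = 0.0125 and 0.00565), while with it in Cy3 it averaged 0.45 and 0.28. UBE2DNL did so under heteronemin, at −0.14 with treated RNA in Cy5 and 0.40 with it in Cy3.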

How the data were processed

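Gene expression in K562 cells was measured on 18 two-colour Agilent arrays in 3 comparisons, each with 3 biological replicates of 2 dye-exchanged arrays. The authors deposited 1 log2 ratio for each feature on each array and used limma, per the submitters' processing notes. For the limma version, background correction, normalization and log base, the sources used here give nothing. The ratios were read as log2 of treated over control on every array, after the array titles. On the dye-exchanged arrays of the 6 heteronemin and cotreated replicates, 9 members had the same sign throughout and 4 (UBE2A, UBE2L6, UBE2MP1 and UBE3D) had opposite signs throughout. Array medians lay between −0.0145 and 0.0669, so the values were centred, and whether arrays were scaled is unknown. Intensities were not used here, so no spot's background or saturation could be read, and precision is limited by how many arrays there were.

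Features were named from the probe annotation. Of 45220 features, 31425 had a gene entry, 93 of these named several genes and 13795 had none. The 31332 features with 1 gene stood for 18334 genes. Features of a gene were averaged, then the dye-exchanged arrays. A limma model (limma 3.58.1, R 4.3.3) was fitted over all genes, with 1 mean per comparison, a spread shared by the comparisons (prior degrees of freedom 2.73) and Benjamini-Hochberg adjustment over all genes. The script was tested on simulated data. P-values measure the spread between the replicates, which the series' design text calls biological, pooled over the 3 comparisons. They do not measure the spread of 1 comparison alone. The SD over all genes in the TNFalpha comparison was 0.141, 0.134 and 0.135 in replicates 1 to 3, below that of the heteronemin comparisons. With each comparison fitted alone, 6 genes were called under TNFalpha, and 0 under heteronemin and in cotreated cells.

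Same-numbered replicates of heteronemin against untreated and cotreated against TNFalpha deviated together (correlations over genes 0.781, 0.626 and 0.622), so the numbers were taken as pairing them. This pairing comes from the data, since the labels name no shared culture. The main fit did not use the pairing, and the replicate block did. For the TNFalpha comparison the correlations were −0.326 to 0.0306.

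The family, gene lists and tests were chosen with earlier results of these data known, and the members of the family were then taken by symbol alone. Every member called in a comparison was named, with those of smallest p up to 4, all UBE3 and UBE4 genes, and up to 4 called genes per list. UBE2B, UBE2S, UBE2Q2P1, HERPUD1, TNFAIP3 and the other members given by replicate were named after their values were seen. Alternatives were the features' median, single dye orientations, other scalings, priors, weights and spreads, fits per feature or per array, the replicate block and leaving out each replicate.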

Additional observations from a re-analysis of the deposited data

How the results depend on the processing

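The counts of called UBE genes under heteronemin (3) and in cotreated cells (2) moved with the processing, while the counts under TNFalpha and for the difference between the heteronemin effects stayed at 0 in each alternative run. In the same order, the counts were 9 and 9 with all 18 arrays and the replicate as a random block. That fit put the correlation between the arrays of a replicate at 0.0145. It thus counted dye-exchanged arrays of the same RNA nearly as separate replicates. Of all 18334 genes, 769 were then higher and 962 lower under heteronemin, and 1070 and 1103 in cotreated cells. With arrays scaled to each other they were 7 and 7 (all genes 515 and 782, then 614 and 697). After quantile normalization they were 6 and 7 (all genes 482 and 679, then 517 and 603). With array weights they were 12 and 8 (all genes 1334 and 1346, then 1894 and 1551). With each comparison fitted alone they were 0 and 0, as for all genes. A trended, robust prior gave 0 and 0, where all genes had 0 under heteronemin and 126 and 150 in cotreated cells. With treated RNA in Cy3 only the heteronemin count was 1, with treated RNA in Cy5 only the cotreated count was 7, and per feature the cotreated count was 5. Of all genes, 285 were higher and 268 lower in the first of these, and 807 and 937 in the second. Of all 31332 features, 1035 were higher and 846 lower in the last. With the replicate block the cotreated count was 6 (all genes 740 higher and 753 lower). In a fit of the heteronemin and cotreated comparisons alone, chosen after seeing the data, the heteronemin count was 1, and with the block added the counts were 11 and 11, which include UBE2Q2P1, whose value rests on replicate 1. Of all genes, 101 were higher and 113 lower under heteronemin in that fit. With the block added, 1499 and 1655 were under heteronemin, and 1859 and 1858 in cotreated cells. Leaving out replicates gave 0 to 9 under heteronemin and 0 to 5 in cotreated cells, with the highest counts, 9 and 5, without replicate 1 in every comparison. Of all genes, 1314 were then higher and 1226 lower under heteronemin, and 1898 and 1499 in cotreated cells. The calls over all genes moved as well. In the main fit they were 419 higher and 473 lower under heteronemin, and 622 and 578 in cotreated cells. The causes were not tested. The members' median stayed below 0 when replicates were left out, from −0.09 to −0.04 under heteronemin and from −0.11 to −0.06 in cotreated cells, and lay between −0.02 and 0.00 under TNFalpha. With treated RNA in Cy5 only, UBE2DNL changed sign, to −0.029 under TNFalpha and 0.11 for the difference between the heteronemin effects. UBE2A, UBE2L6, UBE2MP1 and UBE3D also turned sign between the dyes in both heteronemin comparisons.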

Other observations

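Beside UBE3A, the members with the smallest p for the difference between the heteronemin effect with TNFalpha and that without it were UBE2QL1, a relative of UBE2Q1, and UBE4A. UBE2QL1 was at −0.18, −0.01 and −0.10 in cotreated against TNFalpha-treated cells and at 0.22, 0.03 and 0.09 in heteronemin-treated against untreated cells, so that its replicates did not overlap. Its difference was −0.21 ± 0.18 (SD, n = 3; limma, unadjusted p = 0.0287, adjusted p = 1). For UBE4A the difference was 0.27, 0.11 and 0.29 in replicates 1 to 3 (0.23 ± 0.10; limma, unadjusted p = 0.0493, adjusted p = 1). With treated RNA in Cy5 alone the differences were −0.09 for UBE2QL1 and 0.45 for UBE4A, and with it in Cy3 alone −0.33 and 0.0033. Neither passed the adjustment, and 2.59% of all genes had an unadjusted p under 0.05 for this difference. These p-values come from the fit that does not pair the replicates. In a fit of differences within a replicate number neither gene was called.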
